A study of Mus musculus with 4 samples.

Results

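The B lymphocyte genes Cd79a, Cd79b and Cd22, the immunoglobulin genes Igkv6-23 and Jchain, the helper T cell gene Cd4 and the lymphocyte surface gene Cd52 were read in mouse gastrocnemius muscle on 4 MG-U74Av2 oligonucleotide arrays. The members were the probe sets annotated to 1 of these 7 genes and to no other gene. Each of the 7 genes had 1 such probe set, out of 12422 probe sets and 8251 genes. They had been picked with their values on these same arrays known, so their signals and ratios are given as a description and no test was made.

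Each array carried muscle RNA pooled from 10 mice. One array held intact mice and another held mice whose adrenal glands had been removed (adrenalectomized), 1 week after surgery. The remaining pair held adrenalectomized mice given 0.1 mg of the glucocorticoid cortisol into the peritoneum and sampled 3 h or 24 h later, with no interval since surgery in their labels. All groups but the intact one thus lacked adrenal glands, and the labels named no vehicle injection, strain, sex or age. With 1 array per group, no difference had a replicate check, and each array also had its own fluidics module, so the group cannot be told apart from the pool or the module.

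B lymphocytes recognise antigen through a membrane immunoglobulin that cannot signal by itself and depends on the CD79A and CD79B chains. After activation some B cells become plasma cells, which secrete immunoglobulin, and the joining chain links immunoglobulin units into polymers of the IgM and IgA classes. CD4 is a coreceptor on helper T cells. Glucocorticoids are known to kill immature lymphocytes and to move lymphocytes between blood, bone marrow and tissues. Resting muscle holds few lymphocytes. In RNA of whole muscle, fewer cells of a type and less RNA per cell cannot be told apart.

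All 7 genes had their highest signal on the 24 h array, and 5 of the 7 had their lowest on the adrenalectomized array. The others were Cd52, which was lowest on the intact array, and Cd22, which was too dim on 3 arrays to be ordered. At 24 h every member was at least 2-fold above the adrenalectomized array, with Igkv6-23 at 13.3-fold or more and Cd79a at 4.08-fold. Against the intact array 6 of the 7 were at least 2-fold higher at 24 h, with Cd4 at 1.26-fold the exception. At 3 h the members other than Cd22 lay between the adrenalectomized and the 24 h signals, except Cd52, which differed little among the intact, adrenalectomized and 3 h arrays. Among all 6416 genes that reached the floor of 100 signal units on some array, 32.2% were highest on the 24 h array and 10.0% were both highest there and lowest on the adrenalectomized array, the lowest taken also among signals below the floor. The floor is the signal below which values were set to 100 before ratios were taken, and a fold against an array below it is a lower bound.

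Promoters of members that were highest together are shown because B lineage genes are known to share control elements. RefSeq's GRCm38.p6 table held the promoter of 3 of the 7 members, each running from 250 bases before the transcription start to 50 after it. They were Cd79a (chr7:24897247-24897546, plus strand), Cd22 (chr7:30878979-30879278, minus strand) and Jchain (chr5:88527848-88528147, minus strand). Capitals mark matches, on either strand, to GGAAGT, a core bound by Ets factors, or to CAGGTG, an E-box that E proteins bind.
Cd79a: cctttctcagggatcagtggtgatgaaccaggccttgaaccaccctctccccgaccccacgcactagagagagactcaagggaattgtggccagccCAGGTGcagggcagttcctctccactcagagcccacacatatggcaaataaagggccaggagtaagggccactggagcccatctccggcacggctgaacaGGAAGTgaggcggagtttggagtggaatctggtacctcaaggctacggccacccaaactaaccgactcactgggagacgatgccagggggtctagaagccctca
Cd22: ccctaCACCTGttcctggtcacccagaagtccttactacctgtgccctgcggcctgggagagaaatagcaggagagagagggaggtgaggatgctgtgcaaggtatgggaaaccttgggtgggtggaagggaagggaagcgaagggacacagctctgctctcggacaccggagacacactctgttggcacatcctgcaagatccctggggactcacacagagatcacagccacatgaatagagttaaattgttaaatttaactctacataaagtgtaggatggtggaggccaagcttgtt
Jchain: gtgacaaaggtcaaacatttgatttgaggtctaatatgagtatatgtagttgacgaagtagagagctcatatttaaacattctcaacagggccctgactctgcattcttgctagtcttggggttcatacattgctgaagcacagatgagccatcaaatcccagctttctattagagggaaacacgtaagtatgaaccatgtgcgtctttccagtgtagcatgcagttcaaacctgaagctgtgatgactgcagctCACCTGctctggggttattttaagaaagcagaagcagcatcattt

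The Cd79a promoter held GGAAGT starting 54 bases before the transcription start and CAGGTG on its plus strand. The Cd22 and Jchain promoters each held 1 E-box match, on the opposite strand, and no Ets core. The E-box was found in 20.2% and the Ets core in 23.8% of 32851 promoters of 300 bases. Neither the immunoglobulin octamer ATGCAAAT, present in 1.74% of those promoters, nor AGAACA, a hexamer bound by the glucocorticoid receptor and present in 19.0%, was in these 3 windows. None of these motifs overlapped another in the sequences shown. A match of letters is a description and shows no binding.

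Cd79a encodes the alpha signalling chain of the B cell receptor. Its signal was 262 in intact muscle, 129.6 after adrenalectomy, 246 at 3 h and 528 at 24 h. The intact and 3 h signals lay close together, and on the log scale the adrenalectomized signal was about as far below them as the 24 h signal was above. Cd79a was 2.02-fold lower after adrenalectomy than in intact muscle, 1.90-fold higher at 3 h than after adrenalectomy alone, and 2.02-fold higher at 24 h than in intact muscle. From 3 h to 24 h it was 2.15-fold higher.

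Cd79b encodes the partner beta chain. Its signal was 118 in intact muscle, 69.3 after adrenalectomy, 196 at 3 h and 262 at 24 h. Only the adrenalectomized array was below the floor, so Cd79b was at least 1.18-fold lower there than in intact muscle. Cd79b differed from its partner at 3 h, where it was already 1.65-fold above the intact array, while Cd79a was 1.06-fold below it. At 24 h Cd79b was at least 2.62-fold above the adrenalectomized array and 2.22-fold above the intact array, and its step from 3 h to 24 h was the smallest of the members at 1.34-fold.

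Cd22 encodes a sialic acid binding lectin that restrains B cell receptor signalling. Its signal was 34.4 in intact muscle, 28.6 after adrenalectomy, 83.1 at 3 h and 204 at 24 h. Only the 24 h signal reached the floor, so the fold of Cd22 at 24 h was at least 2.04 against each other array, and the order of the other arrays has no meaning. With a floor of 200 this fold was close to 1, at a log2 ratio of 0.03. The design code of its probe set says that some of its probes also match other transcripts.

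Igkv6-23 is a variable segment of the immunoglobulin kappa light chain, the chain most mouse antibodies carry. Its signal was 411 in intact muscle, 69.7 after adrenalectomy, 468 at 3 h and 1332 at 24 h. The adrenalectomized signal lay below the floor, the intact and 3 h signals lay together and the 24 h signal stood above them. It was at least 4.11-fold lower after adrenalectomy, which with the floor of 100 placed it last of 6112 genes in that comparison, at least 4.68-fold higher at 3 h than after adrenalectomy alone, and 3.24-fold higher at 24 h than in intact muscle. With that floor it ranked 1 of 6228 genes at 24 h against the adrenalectomized array and 1 of 6219 genes at 24 h against the intact array. Its probe set is coded as matching a family of transcripts, so its signal may include other kappa segments. A brighter probe set, annotated to Igkv6-23 and other kappa symbols, had another course at 3 h. It read 592 there, nearer to its adrenalectomized signal of 485 than to its intact signal of 1119.

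Jchain encodes the joining chain of polymeric immunoglobulin and is made by antibody-secreting cells. Its signal was 157 in intact muscle, 81.4 after adrenalectomy, 206 at 3 h and 341 at 24 h. The adrenalectomized signal was the only one below the floor. Jchain was at least 1.57-fold lower after adrenalectomy, at least 2.06-fold higher at 3 h than after adrenalectomy alone, and at least 3.41-fold higher at 24 h than after adrenalectomy alone. Against intact muscle it was 1.31-fold higher at 3 h and 2.17-fold higher at 24 h.

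Cd4 encodes the coreceptor of helper T cells. Its signal was 268 in intact muscle, 127 after adrenalectomy, 243 at 3 h and 337 at 24 h. As for Cd79a, the intact and 3 h signals lay close together with the adrenalectomized one below and the 24 h one above. It was 2.10-fold lower after adrenalectomy and 1.91-fold higher at 3 h than after adrenalectomy alone. At 24 h Cd4 was 2.65-fold above the adrenalectomized array and 1.39-fold above the 3 h array.

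Cd52 encodes a short glycoprotein anchored to the surface of lymphocytes and some other leukocytes. Its signal was 206 in intact muscle, 229.9 after adrenalectomy, 209 at 3 h and 526 at 24 h. The first 3 values lay together and the 24 h value stood alone. Cd52 was 1.12-fold higher after adrenalectomy, the opposite side of 1 from the other 5 members that could be compared there. It was 2.29-fold higher at 24 h than after adrenalectomy alone, 2.52-fold higher than at 3 h and 2.56-fold higher than in intact muscle.

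**Figure D1:**
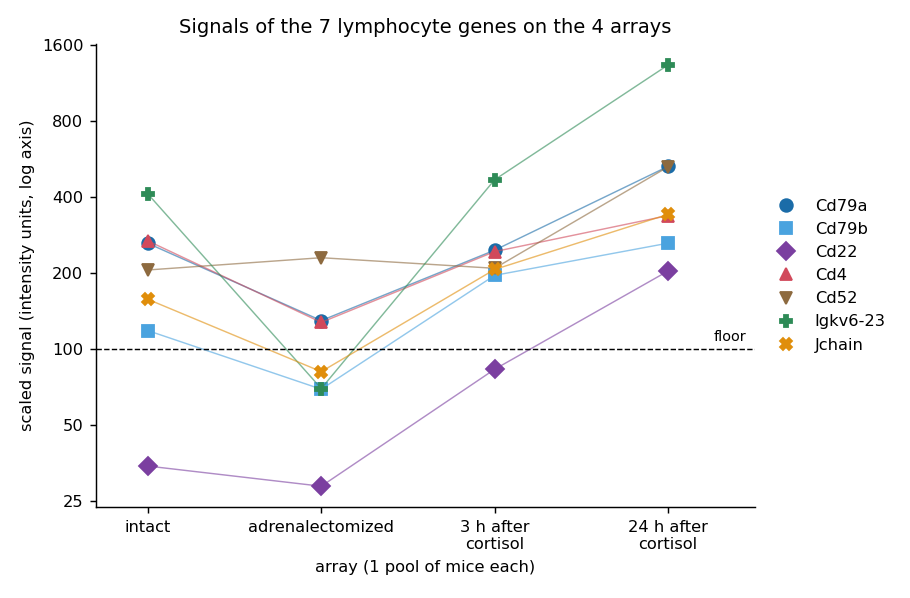
Scaled signal in intensity units (log axis) of each of the 7 genes on the intact, adrenalectomized, 3 h and 24 h arrays, 1 point per array, with thin lines that join the points of a gene and a dashed line at the floor of 100. Every gene is highest at 24 h, from 204 for Cd22 to 1332 for Igkv6-23, and 5 genes are lowest on the adrenalectomized array, apart from Cd52 and from Cd22, whose signals below the floor have no order.

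Adrenalectomized against intact muscle addressed the removal of the adrenal glands. No array held sham-operated mice, so the surgery and the loss of adrenal hormones cannot be told apart. Of the 6 members that could be compared, 5 were lower and 3 of these were at least 2-fold lower, namely Igkv6-23, Cd4 and Cd79a, where 0.376% of 6112 genes were at least 2-fold lower. None was at least 2-fold higher, where 0.344% of genes were. Since the members had been picked with these ratios known, nothing is read from these shares, here or below. The median log2 ratio of the 6 members was -0.83 and that of all genes compared was 0.01. Cd79a, at a log2 ratio of -1.02, was just past 2-fold, and Jchain, at -0.65 with its adrenalectomized signal raised to the floor, was the nearest member short of it. With scaling to ribosomal proteins only Igkv6-23 stayed past 2-fold, with the median of all genes at 0.13. That scaling also moved the share of higher genes among all genes past 2-fold from 47.7% to 67.3%.

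At 3 h against adrenalectomized muscle, the early time after cortisol, 5 of the 6 members compared were higher. Igkv6-23 and Jchain were at least 2-fold higher, and Cd4 and Cd79a fell just short with log2 ratios of 0.93 and 0.93. Cd79b had a log2 ratio of at least 0.97 and was past 2-fold with a floor of 50 or none. Of 6168 genes, 1.86% passed 2-fold upward and 1.17%, but none of the members, downward. The median was 0.95 for the members and -0.02 for all genes. The higher share of genes past 2-fold was 61.5%, and 40.9% with scaling to ribosomal protein probe sets, where the all-gene median was -0.20. Without a floor 4 members were at least 2-fold higher.

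At 3 h against intact muscle, the log2 ratios of Cd79a, Cd4, Cd52 and Igkv6-23 were smaller in size than the probe set error given below. Those of Cd79b and Jchain were 0.73 and 0.39. These ratios too were known when the members were picked, so the error is only a scale for them and none is judged by it. None was at least 2-fold higher or lower, where 1.83% of 6162 genes were higher and 1.04% lower by that much. Of the 6 members compared 4 were higher and 2 lower, from a log2 ratio of -0.14 for Cd4 to 0.73 for Cd79b, with a median of 0.11.

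At 24 h against adrenalectomized muscle all 7 members were at least 2-fold higher, where 1.27% of 6228 genes were, and 1.06% of genes were at least 2-fold lower. The median log2 ratio was 1.40 for the members and 0.01 for all genes, and Cd22, at a lower bound of 1.03, lay nearest the threshold. The order among members rests on the floor of 100, since the ratios of Cd22, Cd79b, Igkv6-23 and Jchain are lower bounds: with no floor Cd22 had a log2 ratio of 2.83 and Jchain one of 2.07, beside 2.03 for Cd79a. With scaling to ribosomal protein probe sets, which moved the all-gene median to -0.28 and the higher share of genes past 2-fold from 54.5% to 19.3%, the members' median was 1.25 and 5 members stayed past 2-fold. With a floor of 200 there were 3, Igkv6-23, Cd79a and Cd52.

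At 24 h against intact muscle 6 members were at least 2-fold higher, where 1.11% of 6219 genes were, and 1.01% of genes were at least 2-fold lower. The median was 1.12 for the members and 0.03 for all genes. Cd79a, at 1.01, lay just inside the threshold, and Cd4, at 0.33, was the member outside it. Scaling changed this count more than the signs: 4 members were past 2-fold with median scaling or quantile normalization and 2 with scaling to ribosomal protein probe sets. The higher share of genes past 2-fold, 52.3%, was 39.5%, 41.0% and 25.8% under these 3 settings, and the last put the all-gene median at -0.14.

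From 3 h to 24 h all 7 members were higher, 4 of them at least 2-fold, where 1.32% of 6229 genes passed 2-fold upward and 1.96%, with no member among them, downward. Igkv6-23, Cd52, Cd79a and Cd22 passed, and Jchain, Cd4 and Cd79b had log2 ratios of 0.73, 0.47 and 0.42. With scaling to ribosomal protein probe sets 2 members passed, and the higher share of genes past 2-fold went from 40.2% to 24.6%. The comparisons share arrays, and each array enters 3 of the 6.

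**Figure D2:**
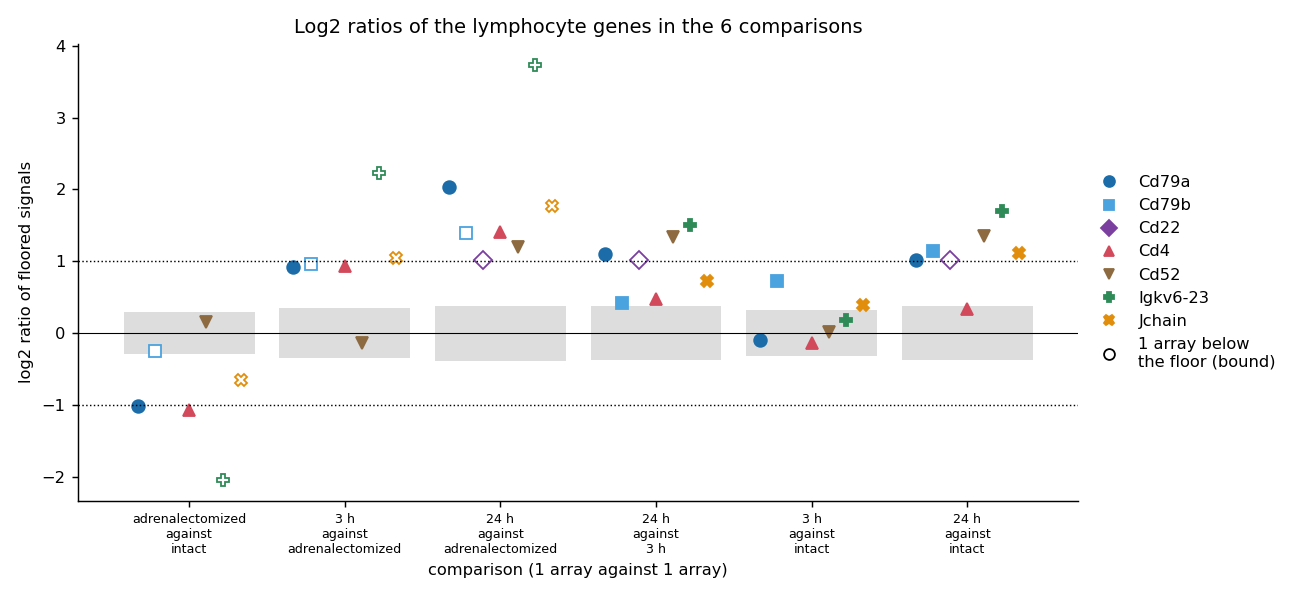
Log2 ratio of floored signals of each gene in the 6 comparisons, 1 array against 1 array, with dotted lines at 2-fold and open symbols where 1 of the arrays was below the floor. Grey bands show 1 SD of the probe set error for dim genes on either side of 0, and do not apply to the open symbols. All 7 genes lie above 0 in the 3 comparisons of the 24 h array, and 5 of 6 lie below 0 after adrenalectomy.

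The only error measure in these data was the disagreement between a pair of probe sets of the same gene, expressed as the SD of the error of 1 log2 ratio. For gene pairs whose brighter set averaged under 500 signal units, as the single probe sets of all members but Igkv6-23 did, this SD was 0.29 for adrenalectomized against intact (282 pairs), 0.35 for 3 h and 0.38 for 24 h against adrenalectomized. It was 0.37 for 24 h against intact, 0.38 for 24 h against 3 h and 0.32 for 3 h against intact. It covers probe behaviour alone and holds no variation between mice or pools. The SD came from pairs at or above the floor on both arrays. It thus does not cover ratios with 1 array below the floor. At 24 h against the adrenalectomized array those were the ratios of Cd22, Cd79b, Igkv6-23 and Jchain. The members' ratios in that comparison ran from 1.03 to 3.74. They are not judged by this SD, because they were known when the members were picked. The 3 h differences from intact muscle were within 1 SD for Cd79a, Cd4, Cd52 and Igkv6-23. Within a gene, the intact and 3 h signals of these 4 genes thus did not differ beyond that spread. The 24 h and intact signals of Cd4 did not either, and Cd52 did not differ beyond it among the intact, adrenalectomized and 3 h arrays. These smaller ratios were known at picking as well, so the SD serves as a scale for them and not as a test.

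**Figure D3:**
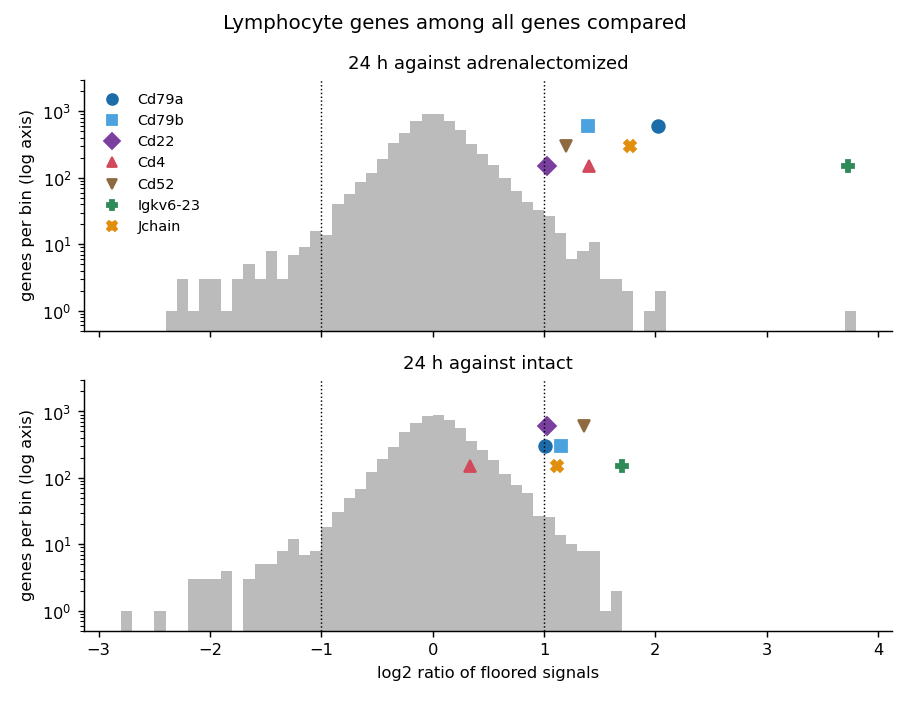
Histograms of the log2 ratios of all genes compared (genes per bin, log axis) at 24 h against the adrenalectomized array, 6228 genes, and against the intact array, 6219 genes, with the 7 lymphocyte genes as symbols at their ratios (their height has no meaning) and dotted lines at 2-fold. Igkv6-23 lies at the right end of both histograms, and Cd4 is the gene short of 2-fold in the lower one.

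The genes with the patterns most like each member were sought among the genes with a mean signal of at least 200, by the distance between centred log2 signals over the 4 arrays. Cd4 lay nearest to Trbv1, a variable segment of the T cell receptor beta chain, at a distance of 0.26, with Trbv1 signals of 249, 134, 208 and 356 (intact muscle first, then adrenalectomized, 3 h and 24 h, as in all lists of signals that follow). The other Trbv1 probe set was below the floor on all 4 arrays. The next were the collagen gene Col9a3 at 0.30 and the calcium channel subunit gene Cacnb2 at 0.32. Cd79a lay nearest to Cacnb2 at 0.42, Atad3a at 0.46 and Trbv1 at 0.46. Jchain lay nearest to Atad3a at 0.15, Cacnb2 at 0.25 and Dmtf1 at 0.30, and Cd79b to Dmtf1 at 0.28, Atad3a at 0.29 and Cytip at 0.30. Cd52 lay nearest to Med27 at 0.14, Rmc1 at 0.27 and Otub1 at 0.31. Igkv6-23 had no close neighbour: Hcrt was at 1.23, Cd79a at 1.26 and Otog at 1.45. Among the members themselves, Cd79b and Jchain were 0.36 apart, Cd79a and Jchain 0.39, Cd79a and Cd4 0.56, and Cd79a and Cd79b 0.73. These distances rest on 4 arrays that all genes share.

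The other B lymphocyte markers were described by a list of 22 genes, of which 17 were on the array with a probe set of their own and 14 reached the floor. Of the 11 that were not members, 7 were highest on the 24 h array, where 32.2% of all genes were. Of the same 11, 4 were both highest there and lowest on the adrenalectomized array, where 10.0% of all genes were. A gene that reached the floor at 24 h alone, as Fcer2a and Pou2af1 did, could only be highest there. For that reason nothing is read from the counts of 7 and 4. At 24 h 2 were at least 2-fold above the adrenalectomized array, where 1.27% of all genes were, and none was against the intact array. The median log2 ratio of these genes was 0.26 at 24 h and -0.42 over 7 genes at 3 h, both against the adrenalectomized array. After adrenalectomy it was -0.04 over 9 genes against the intact array, with none at least 2-fold lower. Blk, a Src family kinase gene of B cells, read 125, 90.6, 113 and 237 and was at least 2.37-fold higher at 24 h than after adrenalectomy. Its other probe set was dimmer and reached the floor at 24 h alone. Blnk, the adaptor that links the B cell receptor kinase Syk to its targets, read 138, 68.3, 19.6 and 226. It was at least 2.26-fold higher at 24 h than after adrenalectomy, but its other probe set read 127, 96.4, 95.7 and 82.8 and was above the floor on the intact array alone. Cd72, Cr2 and Cxcr5 were below the floor on all 4 arrays.

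Ms4a1, which encodes the B cell antigen CD20, had a pair of probe sets that disagreed, and it was singled out after its values were seen. The brighter set read 284, 388, 277 and 359.5, with the highest signal after adrenalectomy. The other set read 160.2, 20.9, 127 and 363, with the member-like low after adrenalectomy and high at 24 h. Ltb, which encodes the lymphocyte cytokine lymphotoxin beta, was singled out in the same way. It read 195, 34.1, 40.2 and 247, so that it was low at 3 h too.

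Antigen receptor genes were surveyed over every probe set whose symbols were all immunoglobulin or all T cell receptor segments, a set drawn up after the data had been seen. Of 73 immunoglobulin probe sets, 37 reached the floor on some array and 36 of these were not the Igkv6-23 set. Among the 36, 28 were highest on the 24 h array, where 32.6% of all probe sets were, and 21 were lowest on the adrenalectomized array, where 21.5% of all probe sets were, signals below the floor included. At 24 h against the adrenalectomized array 34 could be compared. Of these, 33 had a log2 ratio above 0, with a median of 0.41, and 4 were at least 2-fold higher with none at least 2-fold lower, where 1.4% of all probe sets were higher. A probe set that reached the floor at 24 h but not after adrenalectomy could only have a ratio above 0. A set that reached it at 24 h alone could only be highest there. For that reason nothing is read from the counts of 33, 28 and 4. The count of 21 orders signals below the floor too, and nothing is read from it either. These probe sets overlap in sequence and are not independent. Ighv14-2, a heavy chain variable segment, read 77.8, 25.3, 91.8 and 211 on its brightest probe set. Igkv8-30, a kappa variable segment, read 80.5, 76.2, 88.8 and 201 on its brighter one. Both sets reached the floor at 24 h alone. The other Igkv8-30 probe set read 59.1, 54.0, 87.9 and 87.5, below the floor on every array. Ighm is the constant region of IgM. Its brightest probe set read 2366, 1848, 2400 and 2633, a log2 ratio of 0.51 at 24 h against the adrenalectomized array. Its second brightest read 1163, 929, 1271 and 1058, so the low signal after adrenalectomy was shared by both sets and the high signal at 24 h was not.

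**Figure D4:**
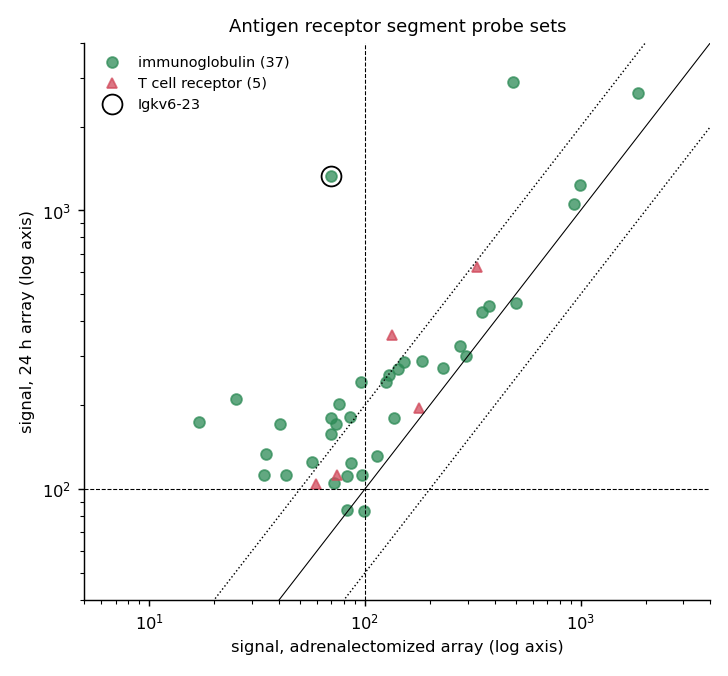
Signal on the 24 h array against signal on the adrenalectomized array (both log axes) for the 37 immunoglobulin and 5 T cell receptor probe sets that reached the floor on some array, with solid and dotted lines at equality and at 2-fold and dashed lines at the floor of 100. Most points lie above the line of equality, and Igkv6-23, circled, lies farthest from it.

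The plasma cell and immunoglobulin list, apart from Igkv6-23 and Jchain, had no member past 2-fold at 24 h. Of its 11 other genes that reached the floor 7 were highest at 24 h, where 32.2% of all genes were. Nothing is read from this count either, since a gene that reached the floor at 24 h alone could only be highest there. The median log2 ratio at 24 h against the adrenalectomized array was 0.17 over 10 genes. Prdm1, which encodes the regulator that drives plasma cell fate, was below the floor on all 4 arrays. Xbp1, a secretory pathway regulator that muscle also makes, had a log2 ratio of 0.07 at 24 h against adrenalectomized muscle.

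The defining markers of T lymphocytes went against the T cell part of the name given to these genes. Of 33 listed genes 24 were on the array, and 11 of these were below the floor on all 4 arrays. Those 11 included the CD3 chain genes Cd3d, Cd3e and Cd3g, the killer T cell genes Cd8a and Cd8b1, and Cd2 and Cd5. Apart from Cd4, 3 of the 12 genes that reached the floor were highest at 24 h, where 32.2% of all genes were. Their median log2 ratio at 24 h against the adrenalectomized array was -0.09 over 11 genes, and none was at least 2-fold higher, where 1.27% of all genes were. Lef1, a transcription factor gene of T cells and of hair follicles, read 185, 457, 113 and 117 on its brighter probe set, opposite to Cd4 after adrenalectomy, but 36.0, 36.7, 107 and 137 on its other one. Of 13 T cell receptor segment probe sets 5 reached the floor, 4 of them highest at 24 h, where 32.6% of all probe sets were. The Trbv13-2 sets among them reached the floor at 24 h alone and could only be highest there, so nothing is read from this count. Cd4, which some macrophages and dendritic cells also make, was thus read without Cd3d, Cd3e or Cd3g above the floor. Other genes of the T cell list were above it. Cd247, the gene of the CD3 zeta chain, read 113, 105, 33.5 and 111 on its brighter probe set. Cd28 read 125, 167, 110 and 177, Lat 389, 375, 407 and 388, and Thy1 491, 478, 467 and 451.

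Genes of leukocytes in general were highest at 24 h in 13 of the 19 genes other than Cd52 that reached the floor, where 32.2% of all genes were. Some of these reached the floor at 24 h alone and could only be highest there, so nothing is read from this count. Their median log2 ratio at 24 h was 0.45 against the adrenalectomized array and 0.49 against the intact array, with 2 genes higher and 1 lower by 2-fold or more in each. Cd53, a tetraspanin gene of leukocytes, read 103, 85.4, 147 and 214, and Cytip, which encodes a regulator of leukocyte adhesion, read 177, 187, 277 and 406. The other Cytip probe set was dimmer and rose less, with 91.4, 108.0, 123 and 131. Lcp1, the leukocyte plastin gene, read 298, 366, 167 and 500.2. Vav1, a signalling gene of blood cells, went the other way with 264, 343, 320.0 and 109.9, on a probe set chosen under relaxed rules.

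For B and T cell receptor signalling genes other than the members, the median log2 ratio at 24 h was 0.06 against the adrenalectomized array over 18 genes, with 1 higher and 1 lower by 2-fold or more. Pag1, an adaptor that restrains Src kinases, was highest at 3 h, with 137, 100.6, 628 and 112.7. Pik3cd, the leukocyte phosphoinositide kinase gene, read 229.9, 324, 154 and 281, lowest at 3 h. Genes of lymphocyte apoptosis and survival had medians of 0.08 at 3 h and 0.01 at 24 h against the adrenalectomized array. The survival gene Bcl2l1 read 544, 571, 1502 and 661, highest at 3 h, and Birc3, an inhibitor of apoptosis, read 128, 165, 276 and 194. Lymphocyte growth factor and homing genes had medians of -0.26 over 7 genes at 3 h and 0.03 over 8 genes at 24 h.

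Markers of other cells were set beside the members. For lymph node genes the median log2 ratio at 24 h against the adrenalectomized array was -0.28 over 7 genes. Of these, 1 (Ltb) was at least 2-fold higher and 1 (Madcam1) at least 2-fold lower, where 1.27% and 1.06% of all genes were. Cxcl13, Glycam1 and Prox1, which mark B cell follicles, high endothelial venules and lymphatic vessels, were below the floor on all 4 arrays. Other genes of this list reached it, such as Lyve1 with 161, 148, 201 and 122. Madcam1 read 154, 204, 118 and 99.5 on its brighter probe set and 192, 240, 63.4 and 65.1 on its other one. In the same comparison macrophage markers had a median of -0.07 over 14 genes. For dendritic cell and class II genes it was 0.14 over 11 genes, with none of either list past 2-fold. Natural killer cell markers had 6 of 10 genes below the floor on every array. The summed signal of the macrophage list was 7608, 8629.7, 7122 and 8323, and that of the B lymphocyte list without its members was 2157, 2143, 1842 and 2840.1. The class II list summed to 6767, 7903, 7662 and 9135, the erythroid list to 6755, 8747, 9367 and 8519, and the adipocyte list to 32761, 32466, 30760.4 and 28878. Epidermis and hair follicle markers moved with the cortisol arrays as well: their sum was 1452, 1557, 12419 and 3435, with 7 of 11 genes at least 2-fold higher at 24 h and Krt5, Krt14 and Krt15 below the floor throughout. Muscle fibre markers summed to 319360.5, 328439, 292995 and 298695. Neutrophil markers summed to 1992, 2063, 1932 and 2349. Genes known to be induced by glucocorticoids followed another course than the members: 11 of 16 were at least 2-fold higher at 3 h than after adrenalectomy, with a median log2 ratio of 1.32, and none was at 24 h, with a median of -0.13. The part of these other cells in the lymphocyte gene signals was not tested.

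**Figure D5:**
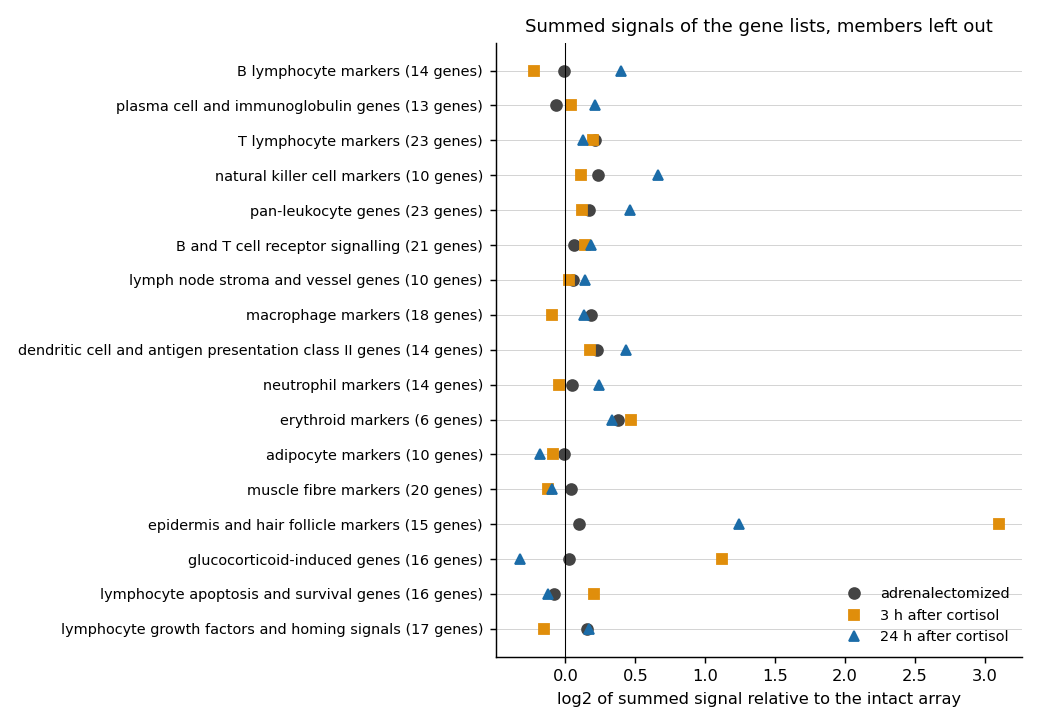
Log2 of the summed signal of each gene list relative to the intact array, with the lymphocyte genes under study left out of every list, 1 symbol each for the adrenalectomized, 3 h and 24 h arrays. The B lymphocyte sum is highest at 24 h (2840.1 against 2157 on the intact array), and the epidermis and hair follicle sum is highest at 3 h.

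The arrays resembled each other in general measures. Median signals lay between 189 and 199.6, between 63.0% and 64.4% of probe sets reached the floor, and the ratio of 3' to 5' signal lay between 0.83 and 0.89 for Gapdh and between 1.04 and 1.10 for actin. The 24 h array had the highest median signal and the lowest Gapdh ratio. Whether these small differences bear on the members was not tested.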

How the data were processed

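The authors isolated RNA with Trizol and computed linear intensity signals with MAS 5.0, per the labels, which state that no replicate was made. The trimmed mean of the deposited signals (2% cut from either end) was 500.6 at 3 h and 500 elsewhere. The instrument settings deposited by the authors gave 1 chip lot, 1 scan day and modules 1 to 4. The sources used here do not say how the scaling was set.

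The 66 control probe sets were left out, arrays were scaled to a trimmed mean of 500, and signals under 100 were raised to 100. Log2 ratios were taken in Python 3.11.15 with pandas 2.3.3, and 2-fold was the threshold. Symbols came from the platform annotation (10833 probe sets with 1 symbol, 396 with several, 1193 with none), and each gene was represented by its brightest probe set. Of the 10833, 10817 matched GRCm38.p6 by gene ID. With 1 array per group no p-value was computed, and the number of arrays limits the precision. The rule for the 2-fold calls was also run on simulated data. That run checks the working of the rule only. It does not show how reliable the calls on these arrays are, since no group had a replicate array.

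The 7 members and the 18 gene lists were chosen with earlier results of these data known. Beside the members, named genes were list genes past 2-fold in some comparison with both arrays above the floor, at most 6 a list, list genes below the floor on all arrays, and the 3 nearest patterns of each member with 3 or more arrays above the floor. Xbp1, Blnk, Ms4a1, Ltb, Ighm, Fcer2a, Pou2af1, Cd247, Cd28, Lat, Thy1, Lyve1, Madcam1 and the segment probe sets were chosen after their values were seen. The alternatives were median, ribosomal protein and quantile scaling, floors of 50 and 200, no floor, the mean of a gene's probe sets, and no suffixed probe sets. No column of per-sample values was left unused.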

Additional observations from a re-analysis of the deposited data

Results flagged for a closer look

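A pair of probe sets outside the gene-level comparisons, because their annotation gives several immunoglobulin symbols, had a signal at 24 h at least 2-fold above both the intact and the adrenalectomized arrays. The first, with 5 kappa light chain symbols that include Igkv6-23, read 1119 in intact muscle, 485 after adrenalectomy, 592 at 3 h and 2896 at 24 h, which is 5.98-fold above the adrenalectomized array and 2.59-fold above the intact one. Unlike the Igkv6-23 set, its 3 h signal lay nearer to the adrenalectomized signal than to the intact one. The second, with 3 heavy chain symbols, read 107.9, 96.1, 164 and 242 in the same order. No replicate stands behind either value.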

How the results depend on the processing

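No paired analysis was possible because each group had 1 array. No member ratio past 2-fold changed sign under any of the 8 alternatives. Of the recomputed member ratios 261 stayed within the probe set error of the main value and 38 moved by more. Here that error was the SD over gene pairs of any brightness, 0.24 for adrenalectomized against intact, and not the SD of dim pairs. Against 3 members at least 2-fold lower after adrenalectomy, 1 was with ribosomal protein scaling and 1 with a floor of 200, where the median was -0.41. Against 2 members at least 2-fold higher at 3 h, there was 1 with a floor of 200 and 1 without suffixed probe sets, and 4 with no floor; the median was 0.28 with a floor of 200 and 1.34 with none. At 24 h against the adrenalectomized array a floor of 200 left 3 of 7 members and a median of 0.77, and the median was 2.03 with a floor of 50 and with none. From 3 h to 24 h, 2 of 4 members stayed past 2-fold with ribosomal protein scaling and 2 without suffixed probe sets. At 3 h against intact muscle 1 member was past 2-fold with no floor. At 24 h against intact muscle 2 of 6 stayed with ribosomal protein scaling and 3 with a floor of 200, with a median of 0.77. Higher floors bind dim signals by construction, and leaving out suffixed probe sets takes Cd22 and Igkv6-23 out of the counts. The cause of the other changes was not tested. Cd22 and Igkv6-23 could not be read without suffixed probe sets, and averaging probe sets left the members as they were, since each had 1.

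Counts of all genes moved most with the floor. They are given as higher and lower in the order adrenalectomized against intact, 3 h and 24 h against adrenalectomized, 24 h against 3 h, and 3 h and 24 h against intact. The main counts were 21 and 23, 115 and 72, 79 and 66, 82 and 122, 113 and 64, and 69 and 63. With a floor of 50 they were 101 and 92, 214 and 157, 196 and 158, 194 and 217, 213 and 157, and 193 and 155. With a floor of 200 they were 4 and 7, 68 and 34, 17 and 26, 24 and 65, 67 and 34, and 19 and 32. With no floor they were 365 and 413, 526 and 398, 603 and 353, 522 and 434, 518 and 410, and 559 and 350. With ribosomal protein scaling 37 were higher after adrenalectomy, 120 lower at 3 h and 38 higher and 159 lower at 24 h against the adrenalectomized array, 50 higher from 3 h to 24 h and 32 higher at 24 h against intact muscle. The limit set by signal over background is that Cd22 reached the floor on 1 array.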
